A study of Rattus norvegicus with 6 samples.

Results

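The nicotinic acetylcholine receptor subunit genes Chrna3, Chrna4, Chrna5, Chrna6, Chrna7, Chrnb2, Chrnb3 and Chrnb4 were followed across classes of nuclei from the rat nucleus accumbens shell. They were taken by gene symbol, 8 of the 32883 features counted, and all 8 had at least 1 unique molecular identifier (UMI, a tag that counts 1 captured RNA molecule) in the nuclei kept. The study compared 3 pools of female and 3 pools of male Long-Evans rats aged 90 to 100 days, with no treatment named in the labels. Each pool held punches from 4 animals cut from frozen slices of 200 µm, and its nuclei went into 1 droplet-based 3' library, so the replicate is a pool and n is at most 3 per sex. The labels of female 3 and male 1 (called set A here) are worded differently from those of female 1, female 2, male 2 and male 3 (set B).

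Nicotinic receptors are ion channels opened by acetylcholine and by nicotine, built as rings of subunits. Chrna7 encodes a subunit that can form a channel by itself, Chrna4 and Chrnb2 together form the common high-affinity receptor of the brain, and Chrna5 and Chrnb3 encode accessory subunits that join other alpha and beta subunits. Chrna3 and Chrnb4 form the classical receptor of autonomic ganglia and of the medial habenula, and Chrna6 is known from midbrain dopamine neurons. In the accumbens, acetylcholine comes mainly from local cholinergic interneurons, and many nicotinic receptors sit on incoming axons. Nuclei report only cells whose bodies lie in the punch, so RNA of such distant neurons is outside this measurement.

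In the rat genome, Chrna5, Chrna3 and Chrnb4 are neighbours on chromosome 8, with 1 annotated gene between each adjacent pair (Zc3h15-ps2 and LOC120094166), and Chrna6 and Chrnb3 are adjacent on chromosome 16. The promoters of the chromosome 8 genes are shown because Chrna5 and Chrna3 peaked in different classes in the data. The sequences are from RefSeq on build GRCr8, 250 bases before to 50 bases after each gene start, 5′ to 3′ on the gene's strand. Capitals mark the GC box GGGCGG, read on both strands. Chrna5 lies on the plus strand at chr8:64265629-64265928, Chrna3 on the minus strand at chr8:64311202-64311501 and Chrnb4 on the minus strand at chr8:64333060-64333359.
Chrna5: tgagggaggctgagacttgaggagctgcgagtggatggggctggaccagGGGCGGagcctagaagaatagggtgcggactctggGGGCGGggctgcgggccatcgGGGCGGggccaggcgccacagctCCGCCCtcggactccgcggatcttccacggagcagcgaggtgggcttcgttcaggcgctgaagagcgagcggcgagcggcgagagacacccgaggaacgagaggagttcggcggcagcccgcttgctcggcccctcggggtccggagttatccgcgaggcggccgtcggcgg
Chrna3: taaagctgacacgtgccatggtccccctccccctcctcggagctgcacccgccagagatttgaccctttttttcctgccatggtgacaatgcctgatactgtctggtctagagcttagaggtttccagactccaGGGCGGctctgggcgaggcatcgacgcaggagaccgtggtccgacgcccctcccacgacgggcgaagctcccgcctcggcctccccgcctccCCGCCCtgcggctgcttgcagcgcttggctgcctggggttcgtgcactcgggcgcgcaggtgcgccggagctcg
Chrnb4: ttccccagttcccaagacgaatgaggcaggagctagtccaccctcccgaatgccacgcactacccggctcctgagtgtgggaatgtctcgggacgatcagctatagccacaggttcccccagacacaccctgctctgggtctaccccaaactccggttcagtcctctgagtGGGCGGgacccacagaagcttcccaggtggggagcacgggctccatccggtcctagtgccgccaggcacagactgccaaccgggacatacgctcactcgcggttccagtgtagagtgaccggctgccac
The Chrna5 window held 4 GC boxes, that of Chrna3 held 2 and that of Chrnb4 held 1. A GC box was found in 33.1% of the 33469 rat promoters of the same length, and in each of the 6 members whose promoter was in the table. The TATAAA motif, present in 14.2% of all promoters, and the TGACGTCA motif, present in 1.83%, matched none of the 6, and CACGTG, present in 6.42%, matched Chrna3 and Chrna7. A match is a run of letters and not a shown binding site.

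After filtering, 34218 nuclei with 186016460 UMIs remained of 41974 barcodes. Kept nuclei numbered 3071, 2762 and 14291 in female 1 to 3, and 8162, 3013 and 2919 in male 1 to 3, and the median UMIs per nucleus of the libraries ran between 3059 and 4811.5. Set A thus held most of the material. The share of barcodes past the mitochondrial limit was 17.4%, 40.7% and 1.55% in the female libraries and 2.28%, 13.1% and 23.9% in the male ones, so the low shares were those of set A. Any pair of libraries shared 3 to 52 barcodes, at most 0.645% of the smaller library. Classes were named from marker genes, with the 8 members kept out of the clustering. Named classes held 62.1% of nuclei, clusters that kept a number 24.6%, and clusters with markers of several lineages 13.4%. The last were kept out of the descriptions by class. Among the named ones, 2 clusters carried the glutamatergic markers Slc17a7 and Slc17a6, and nearly all of their nuclei came from set A.

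Chrna7 and Chrnb2, the subunits that complete a channel alone or with Chrna4, were found in all the named neuron classes, and Chrna7 also in oligodendrocyte precursors. Of all UMIs of the members, Chrna7 had 12187, Chrna5 2384, Chrnb2 1007, Chrna4 657, Chrnb3 193, Chrna3 179, Chrnb4 48 and Chrna6 6. At least 1 Chrna7 UMI was seen in 21.1% of nuclei. Totals differ between genes in length and capture, so the following compares each gene only with itself, in CPM, the UMIs of a gene scaled to all UMIs of a class within a library.

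By mean over libraries, Chrna7 was highest in the glutamatergic-like clusters, measured in female 3 and male 1 alone, and lowest in mature glia. Glutamatergic-like cluster 23 had 147.3 CPM in female 3 and 123.7 CPM in male 1, and glutamatergic-like cluster 25 had 135.2 and 111.2 CPM in the same libraries. Cluster 13, which led with Col14a1, Chst9, Grm8 and the opioid receptor gene Oprm1, had 96.7, 96.6 and 148.3 CPM in female 1 to 3, and 118.5, 61.4 and 77.3 CPM in male 1 to 3. It thus lay above glutamatergic-like cluster 25 in both female 3 and male 1, and above cluster 23 in female 3. The Drd3 neuron-like nuclei had 95.3, 90.2 and 119.5 CPM in females, against 116.7, 67.5 and 54.5 CPM in males. The female and male values overlapped in both, and set A gave the highest values of each. Medium spiny neurons (MSNs), the GABA-releasing projection neurons that make up most of the accumbens, lay lower, at 48.4 ± 10.0 CPM in D1 MSN-like and 39.9 ± 7.86 CPM in D2 MSN-like nuclei (SD, n = 6 libraries). Cholinergic-like nuclei, the local source of acetylcholine, had 90.9 ± 19.98 CPM over the 4 libraries with at least 20 of them. In the whole order of 20 classes and clusters, no class exceeded the next one without overlapping ranges. The order therefore separates its ends and not its neighbours.

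Oligodendrocyte precursor (OPC)-like nuclei, which divide and give rise to myelinating cells, stood with the neurons. Their Chrna7 level was 49.1, 37.6 and 74.1 CPM in female 1 to 3, and 62.7, 55.6 and 76.5 CPM in male 1 to 3. In oligodendrocyte-like nuclei it was 4.33, 22.9 and 19.8 CPM in females and 5.32, 1.32 and 2.76 CPM in males. OPC-like nuclei were above oligodendrocyte-like nuclei in 6 of 6 libraries, with a ratio of means of 6.30, and above astrocyte-like nuclei in 6 of 6, with a ratio of 8.15. They were above the sum of D1 and D2 MSN-like nuclei in 5 of 6 libraries. These class differences are descriptions, with no test fitted for them.

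General neuron markers were also detected in the OPC-like nuclei. Whether RNA from neurons was present there, and its part in the Chrna7 level, was not tested. The general neuron markers used in naming clusters summed to 1698 CPM in OPC-like, 1013 CPM in oligodendrocyte-like and 795.4 CPM in astrocyte-like nuclei, or 24.2%, 14.4% and 11.3% of their level in MSN clusters. Snap25, a synaptic gene of neurons, stood at 445 ± 87.6 CPM in OPC-like nuclei, 228 ± 143 CPM in oligodendrocyte-like nuclei and 1034 ± 52.8 CPM in D1 MSN-like nuclei. Chrna7 in OPC-like nuclei was at 59.3 ± 14.9 CPM, above its D1 MSN-like level, while Chrnb2 was near 0 there. A Chrna7 UMI was found in 14.1% of OPC-like nuclei at a median of 2238 UMIs, and in 1.90% of oligodendrocyte-like nuclei at a median of 1712 and 2.30% of astrocyte-like nuclei at 2114.5. With each nucleus thinned to 2000 UMIs, which left out 383 OPC-like, 2167 oligodendrocyte-like and 1135 astrocyte-like nuclei, the shares were 13.0%, 1.23% and 2.24%. In the same thinning the share was 9.26% in D1 MSN-like, 7.89% in D2 MSN-like, 18.3% in Drd3 neuron-like, 18.2% in cluster 13 and 24.0% in glutamatergic-like cluster 23 nuclei, against unthinned shares of 23.5%, 19.2%, 29.4%, 28.6% and 60.2%. For glutamatergic-like cluster 25 the thinned share was 16.4%, against 55.0% unthinned.

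Chrnb2, the beta partner in the high-affinity receptor, was a gene of neurons in these data. D1 MSN-like nuclei had 8.08, 8.09 and 7.19 CPM in female 1 to 3, and 7.70, 8.60 and 9.5 CPM in male 1 to 3. D2 MSN-like nuclei averaged 7.14 ± 2.30 CPM. The cholinergic-like nuclei had the highest mean, 19.6 ± 17.7 CPM, but it rested on male 3, with 45.2 CPM from 10 UMIs, while female 1 had 17.9 CPM and female 3 and male 1 had 7.66 and 7.65 CPM. Without male 3 the mean was 11.1 CPM. Astrocyte-like nuclei averaged 1.04 ± 1.12 CPM, oligodendrocyte-like nuclei 0.236 ± 0.373 CPM, and OPC-like nuclei 0.203 ± 0.496 CPM, with a single UMI among 907 nuclei. D1 MSN-like nuclei exceeded oligodendrocyte-like nuclei in 6 of 6 libraries, with a ratio of means of 34.7. A Chrnb2 UMI was in 4.84% of D1 MSN-like nuclei, against 0.0866% of oligodendrocyte-like nuclei, whose median depth of 1712 UMIs was below the 5465.5 of the MSNs. Thinned to 2000 UMIs, the shares were 1.24% and 0.0770%.

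**Figure D1:**
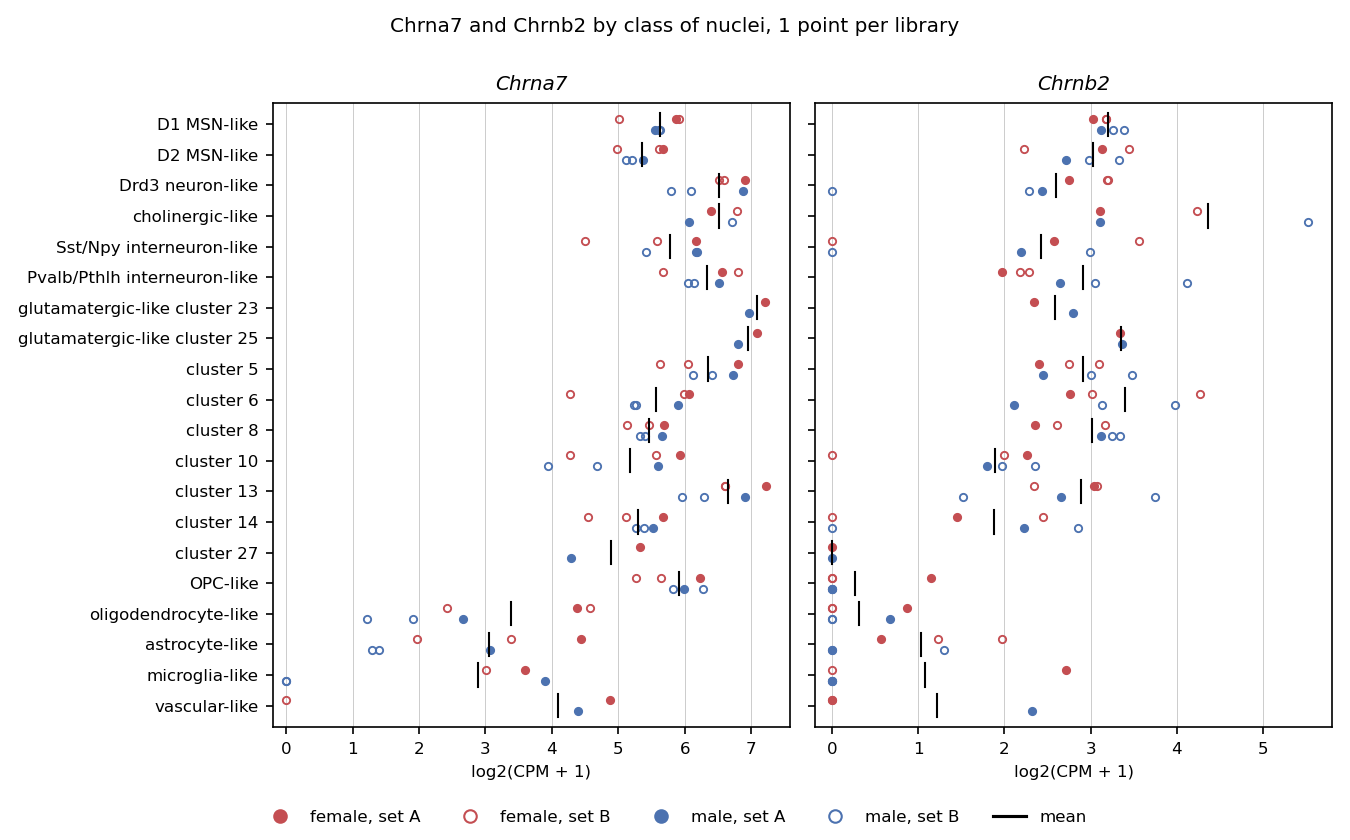
Chrna7 (left) and Chrnb2 (right) on a log2(CPM + 1) scale by class of nuclei, with 1 point per library that had at least 20 nuclei of the class. Red points (upper) are female and blue points (lower) male libraries, filled for set A and open for set B, and the black bar is at the mean CPM. The OPC-like points for Chrna7 lie with the neurons, and those for Chrnb2 with the mature glia.

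Chrna4, the alpha partner of Chrnb2, had another pattern: it was low in MSNs and higher in OPC-like and glutamatergic-like nuclei. In OPC-like nuclei it was 11.6, 30.1 and 6.08 CPM in female 1 to 3, and 9.501, 7.94 and 20.4 CPM in male 1 to 3. D1 and D2 MSN-like nuclei together had 0.294, 0.664 and 1.31 CPM in females, and 0.969, 0.293 and 1.17 CPM in males. No OPC-like value reached down to an MSN value, and the ratio of means was 18.2. OPC-like nuclei also exceeded oligodendrocyte-like nuclei (1.69 ± 1.61 CPM) and astrocyte-like nuclei (1.41 ± 1.21 CPM) in 6 of 6 libraries, with ratios of 8.42 and 10.2. The OPC level came from 24 UMIs in 23 nuclei, 2.54% of the class. None of these 23 nuclei had a Chrnb2 UMI, at a median of 2430 UMIs each, so absence of the partner could not be shown at this depth. Microglia-like nuclei had 0 Chrna4 UMIs in 436 nuclei, which allows a share of nuclei with a UMI of up to 0.688% at their median of 1329.5 UMIs, and sets no limit on nuclei that express the gene.

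In glutamatergic-like cluster 25 Chrna4 was at 19.1 CPM in female 3 and 37.1 CPM in male 1, and in glutamatergic-like cluster 23 at 12.02 and 9.38 CPM. Cluster 5, led by Bnc2, Reln and Prlr, had 6.14 ± 2.72 CPM over 6 libraries, with a lowest value of 3.80 and a highest of 11.3 CPM. Cluster 6, led by Gbx1, Lhx8 and Sema3c, had 4.22 ± 2.64 CPM. The mean of each lay above the MSN mean of 0.782 ± 0.436 CPM, although cluster 6 had 0 Chrna4 UMIs in female 2. Glutamatergic-like cluster 25 did not overlap clusters 23, 5 and 6, but its range overlapped that of OPC-like nuclei. Clusters 5 and 6 overlapped each other.

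Chrna5 was the most uneven member. Glutamatergic-like cluster 25 had 393.9 CPM in female 3 and 434.3 CPM in male 1, and Chrna5 was the leading gene of the cluster by fold although it had not entered the clustering. A Chrna5 UMI was found in 172 of its 189 nuclei (91.0%, exact 95% interval 86.0% to 94.7%) at a median of 9280 UMIs, and in 0.404% of oligodendrocyte-like nuclei at a median of 1712 UMIs. Thinned to 2000 UMIs the shares were 55.2% and 0.231%. Glutamatergic-like cluster 23, with Slc17a7 at 213.6 CPM in female 3 and 248.9 CPM in male 1, had Chrna5 at 37.4 and 28.5 CPM. Cluster 25 was close to it in Slc17a7, at 235.5 and 276.7 CPM. In the mouse cortex Chrna5 is known from deep-layer pyramidal neurons. The files do not say where the glutamatergic-like nuclei lay in the punch.

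Outside those clusters Chrna5 was low: 4.53 ± 3.47 CPM in D1 MSN-like, 4.25 ± 2.43 CPM in D2 MSN-like and 7.34 ± 5.69 CPM in Pvalb/Pthlh interneuron-like nuclei, and 0.963 ± 2.36 CPM in oligodendrocyte-like nuclei, where all 14 UMIs came from female 3. In D1 MSN-like nuclei female 1 to 3 had 2.20, 2.16 and 7.78 CPM and male 1 to 3 had 9.74, 4.18 and 1.14 CPM. Set A gave the higher values there, and the same libraries had Slc17a7 in D1 MSN-like nuclei at 8.61 CPM (female 3) and 4.6 CPM (male 1), against 0 to 0.539 CPM in set B. Whether free RNA from glutamatergic nuclei adds to the Chrna5 of the other classes was not tested.

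Glutamatergic-like clusters 23 and 25 held 28.3% and 33.7% of all Chrna5 UMIs. Over all nuclei Chrna5 was at 1.80, 2.68 and 18.5 CPM in female 1 to 3, and 15.2, 2.79 and 2.09 CPM in male 1 to 3, and 94.8% of its UMIs came from set A. Those clusters made up 10.9% of female 3 and 4.96% of male 1 nuclei, 0.0724% of female 2 and none of the others. Without them the levels were 1.80, 2.39 and 6.81 CPM in females, and 7.38, 2.79 and 2.09 CPM in males. Female 3 and male 1 stayed the highest, and in those libraries Slc17a7 also stayed at 22.3 and 19.9 CPM. The nuclei left still included the clusters with markers of several lineages. Among them, cluster 26 carried glutamatergic and oligodendrocyte markers, with 73 nuclei in female 3 and 21 in male 1. It held 45 of the 786 Chrna5 UMIs left in set A.

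**Figure D2:**
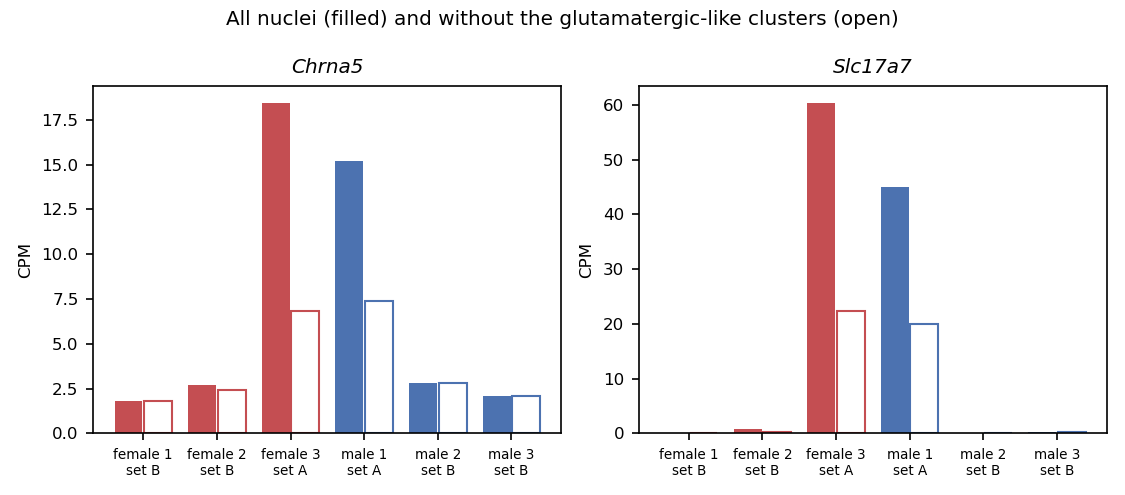
Chrna5 (left) and the glutamatergic marker Slc17a7 (right) in CPM over all nuclei of each library, with filled bars for all nuclei and open bars without the glutamatergic-like clusters. Red bars are female and blue bars male libraries. Both genes are high in female 3 and male 1 and remain above the others there when the clusters are left out. The open bars still include cluster 26, which carried glutamatergic and oligodendrocyte markers.

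Chrna3 and Chrnb4, partners in the ganglionic receptor, were rare, and Chrna3 was concentrated in 1 class. The Pvalb/Pthlh interneuron-like nuclei had 63.9, 38.6 and 8.40 CPM in female 1 to 3, and 11.1, 29.2 and 16.4 CPM in male 1 to 3. D1 and D2 MSN-like nuclei together had 0.294, 0.166 and 0.138 CPM in females, and 0.129, 1.17 and 0.700 CPM in males. The groups did not overlap. The class held 79 of the 179 Chrna3 UMIs, or 44.1%, in 56 of its 874 nuclei (6.41%, at a median of 4833 UMIs). Oligodendrocyte-like nuclei had a Chrna3 UMI in 0.0289%, at a median of 1712 UMIs, and thinning to 2000 UMIs gave 3.25% and 0.0770%. The next levels were in glutamatergic-like cluster 25, at 3.32 CPM in female 3 and 10.6 CPM in male 1, in Sst/Npy interneuron-like nuclei, at 3.60 ± 5.13 CPM, and in cluster 6, at 3.51 ± 4.64 CPM. The highest levels in the class were in set B, in which each library had only 39 to 60 of its nuclei.

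The name of that class rests on few markers. Pvalb itself was at 5.21 ± 5.78 CPM, and it counted towards the name together with Kit and Kcnc2. In finer clustering the class split, and the larger share of Chrna3 fell to 523 nuclei that were high in Tmem132c and Npas1 and no longer carried the Pvalb/Pthlh name. They had 182.9, 88.4 and 8.66 CPM of Chrna3 in female 1 to 3, and 12.7, 75.0 and 39.3 CPM in male 1 to 3, from 63 UMIs. The 312 nuclei with high Kit, which kept the name, had 0, 16.7 and 8.57 CPM in females, and 8.85, 5.55 and 0 CPM in males, from 16 UMIs. Libraries summed, Chrna3 was at 20.1 CPM (exact 95% Poisson interval 15.4 to 25.7) in the Tmem132c nuclei and 7.87 CPM (4.5 to 12.8) in the Kit nuclei. The ranges of the libraries overlapped, through the values of set A, and the female 1, female 2, male 2 and male 3 values of the Tmem132c nuclei rest on 20, 20, 18 and 16 nuclei. Reln stood at 479.6 CPM in the Tmem132c nuclei and 22.1 CPM in the Kit nuclei, Vip at 52.3 and 2.46 CPM, and Kit at 69.2 and 399.6 CPM. Kcnc2 was at 2921 and 1651 CPM, and Pvalb at 3.51 CPM (11 UMIs) and 12.3 CPM (25 UMIs). The cluster of the Tmem132c nuclei lost the name because Pvalb, the first-listed marker, lay under 50% of its highest level among the clusters. Chrna7 split the same way, with 122.4 CPM (exact 95% Poisson interval 110.5 to 135.3, counting error only) in the Tmem132c nuclei and 41.3 CPM (33.0 to 51.2) in the Kit nuclei. In each of the 6 libraries the Tmem132c nuclei had the higher Chrna7 level. The 2 groups were defined without the members, and no test was fitted between them.

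**Figure D3:**
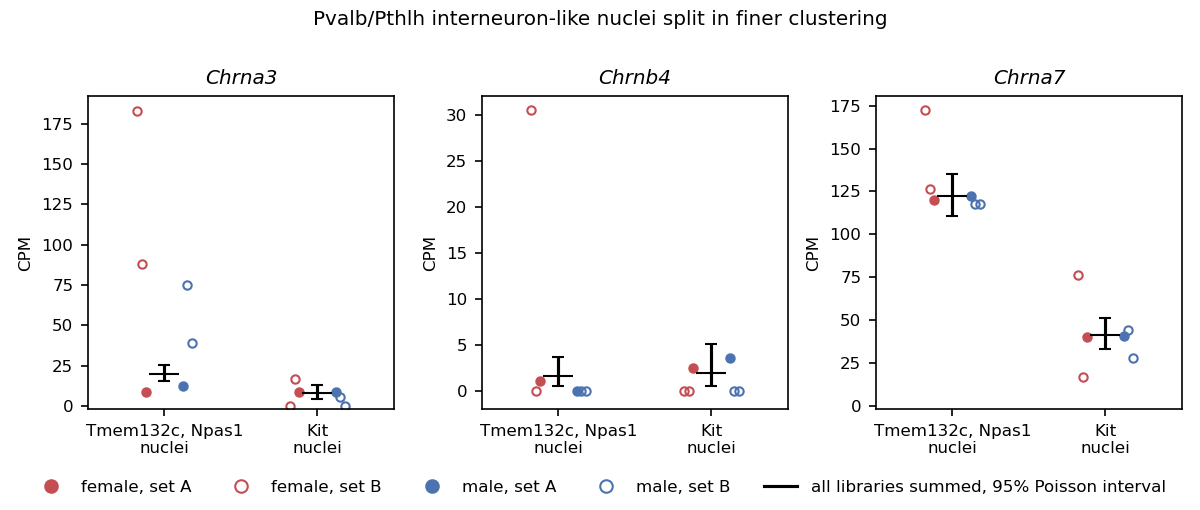
Chrna3, Chrnb4 and Chrna7 in CPM in the nuclei of the Pvalb/Pthlh interneuron-like class, split by finer clustering into nuclei led by Tmem132c and Npas1 (left of each panel) and by Kit (right). Points are libraries (red female, blue male, filled set A, open set B), and the black bar is the level of all libraries summed with its 95% Poisson interval. The Chrna7 points of the Tmem132c nuclei all lie above those of the Kit nuclei, and the Chrna3 points overlap.

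Chrnb4 had 48 UMIs in all, of which 9 were in the Pvalb/Pthlh interneuron-like class, in 6 nuclei. They gave 10.7, 0 and 1.46 CPM in female 1 to 3 and 1.31, 0 and 0 CPM in male 1 to 3. Of the 56 nuclei of the class with Chrna3, 2 also had Chrnb4 and 3 had Chrna5. The other classes had at most 8 Chrnb4 UMIs each, and OPC-like, cholinergic-like and Drd3 neuron-like nuclei had 0. Chrna5 and Chrna3 lie on opposite strands and point towards each other, and no source used here gives the strand setting of the counting, so reads at their ends may be shared. Glutamatergic-like cluster 25, where Chrna5 peaked, was also second in the order of Chrna3. All 10 of its nuclei with a Chrna3 UMI had Chrna5, but so did 162 of its 179 nuclei without Chrna3. Median depth was 12174.5 UMIs in the nuclei with Chrna3 and 9245 UMIs in those without. The part of shared reads in the Chrna3 level of that cluster was not tested.

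Of Chrna6 and Chrnb3, which join the receptors of dopamine axons, Chrna6 was nearly absent from these nuclei and Chrnb3 was rare. Chrna6 had 6 UMIs in 5 nuclei, all of them D1 or D2 MSN-like. Chrnb3 had 193 UMIs in 188 nuclei, spread widely, with 1.44 ± 0.896 CPM in D1 MSN-like and 1.29 ± 0.620 CPM in D2 MSN-like nuclei. Cluster 5 had 25 Chrnb3 UMIs, at 2.52, 0 and 1.16 CPM in female 1 to 3 and 1.90, 6.76 and 7.04 CPM in male 1 to 3. The highest level was in the 74 nuclei of cluster 27, led by Aldh1a2, Slc6a13 and Tbx18, at 23.4 CPM in female 3 and 27.8 CPM in male 1, from 3 UMIs in each. No Chrna6 UMI was found in a nucleus with Chrnb3. With Chrna6 in 5 nuclei and Chrnb3 in 0.549% of all nuclei, the counts could not show whether the 2 genes occur apart.

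**Figure D4:**
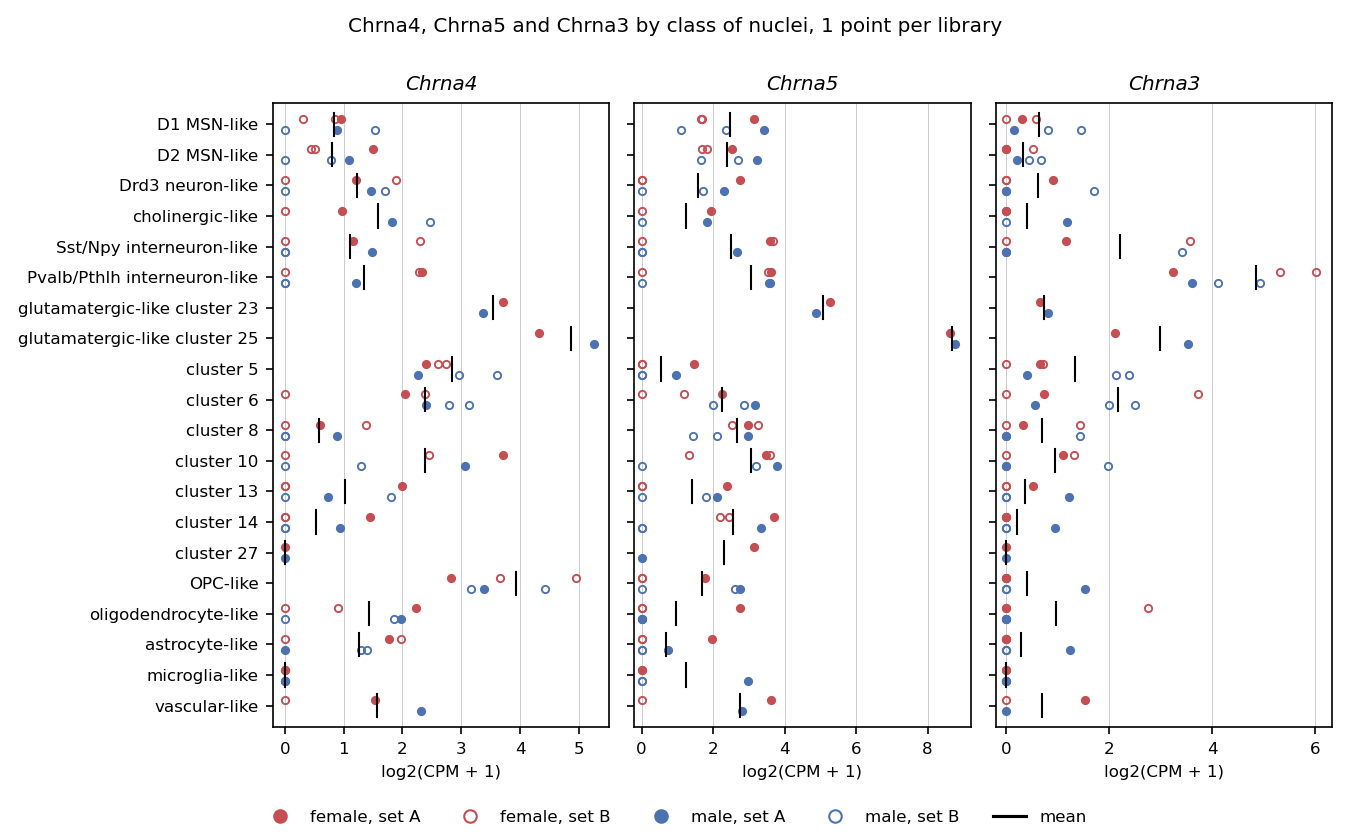
Chrna4, Chrna5 and Chrna3 on a log2(CPM + 1) scale by class of nuclei, 1 point per library, coloured and filled as red female, blue male, filled set A and open set B, with the black bar at the mean CPM. Chrna4 is highest in glutamatergic-like cluster 25 and OPC-like nuclei, Chrna5 in glutamatergic-like cluster 25 and Chrna3 in Pvalb/Pthlh interneuron-like nuclei.

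Members whose RNA was abundant enough were then tested between neuron classes, with edgeR's quasi-likelihood test on counts summed per class and library, the library as a block and Benjamini-Hochberg adjustment over all genes of the fit. Between D1 and D2 MSN-like nuclei, 14% of the genes that had not entered the clustering were called at an adjusted p of 0.05, 7.42% as higher in D1, and 1 of the 3 members tested was. Chrna7 was higher in D1 MSN-like nuclei, at 59.3, 31.3 and 57.7 CPM in female 1 to 3 and 46.0, 48.4 and 47.9 CPM in male 1 to 3. D2 MSN-like nuclei had 48.1, 30.7 and 50.0 CPM in females, and 40.6, 35.9 and 33.8 CPM in males. The ranges overlapped, but the D1 value was the higher in 6 of 6 libraries, by 0.24 on the log2 scale (SE 0.065, edgeR adjusted p = 6.73e-03). Chrna5 differed by 0.26 (SE 0.203, adjusted p = 0.477) and Chrnb2 by 0.20 (SE 0.159, adjusted p = 0.493), and edgeR called neither. With DESeq2 the Chrna7 difference was of the same size but not called (0.25, adjusted p = 0.141), and the finer clustering gave 0.21 (edgeR, adjusted p = 0.237). The finer clustering did not compare the same nuclei. Clusters with D2 markers (1667 nuclei) or D1 markers (1801 and 937 nuclei) kept only a number in it. In 1 of its D1 MSN-like clusters, 512 of 578 nuclei came from female 2.

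Against D1 and D2 MSN-like nuclei summed, 38.9% of genes outside the clustering were called in Pvalb/Pthlh interneuron-like nuclei, 14.9% as higher, and 2 of the 4 members tested were. Chrna3 was higher by 5.85 on the log2 scale (SE 0.407, adjusted p = 9.03e-10) and in 6 of 6 libraries. Chrna7 was higher by 0.70 (SE 0.107, adjusted p = 2.65e-05), at 79.8 ± 21.9 CPM against 45.0 ± 8.85 CPM, again in 6 of 6 libraries. With the finer clustering only the Kit nuclei keep the name, and the MSN-like side also holds fewer nuclei, as described above. In that fit Chrna7 differed by 0.03 (edgeR, adjusted p = 0.916) and Chrna3 did not pass the count filter. Chrnb2 differed by -0.83 (SE 0.331, edgeR adjusted p = 0.0535), at 3.55, 3.86 and 2.92 CPM in female 1 to 3 and 5.24, 7.31 and 16.4 CPM in male 1 to 3, against 7.77 ± 1.15 CPM in MSN-like nuclei. It was lower in 5 of 6 libraries, and male 3, with 3 UMIs, was the exception. Chrnb2 was called as lower without male 3 (-0.92, edgeR adjusted p = 0.0366), with doublets kept (-0.94, adjusted p = 0.0327) and with no count filter (-0.86, adjusted p = 0.0476), while the other settings gave adjusted p of 0.0538 to 0.491. Chrna5 differed by 0.45 (SE 0.339, edgeR adjusted p = 0.324).

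In cholinergic-like nuclei, where 37.9% of genes outside the clustering were called against the same MSN-like nuclei, 13.2% as higher, 1 of 2 members tested was called. Over the 6 libraries of this fit Chrna7 was at 70.05 ± 37.78 CPM, with a lowest value of 9.265 CPM, against 45.0 ± 8.85 CPM in MSN-like nuclei. It was called as higher by 0.48 (SE 0.178, edgeR adjusted p = 3.61e-02) and was higher in 5 of 6 libraries. Of these libraries, female 2 and male 2 had 16 and 12 such nuclei. That call was lost with DESeq2 (0.50, adjusted p = 0.127), without the count filter (0.39, adjusted p = 0.0514), and on leaving out female 1 (0.38, adjusted p = 0.109), female 2 (0.48, adjusted p = 0.0502), female 3 (0.53, adjusted p = 0.0714) or male 1 (0.52, adjusted p = 0.0695). Chrnb2 differed by 0.49 (SE 0.406, edgeR adjusted p = 0.369), at 13.07 ± 17.06 CPM over the 6 libraries against 7.77 ± 1.15 CPM. In Sst/Npy interneuron-like nuclei 34.1% of genes outside the clustering were called, 14.8% as higher, and neither of 2 members was. There Chrna7 differed by 0.23 (SE 0.159, edgeR adjusted p = 0.293) and Chrnb2 by -1.09 (SE 0.506, edgeR adjusted p = 0.0876). The 3 interneuron comparisons share their MSN-like nuclei.

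Genes that work with nicotinic receptors were read in the same fits, 22 of a list of 23 being in the files. The share called among all genes tested was 15.6% between D1 and D2 MSN-like, 41% in Pvalb/Pthlh interneuron-like, 36.2% in Sst/Npy interneuron-like and 39.6% in cholinergic-like nuclei. The lynx family encodes small anchored or secreted proteins, several of which bind nicotinic receptors. In Pvalb/Pthlh interneuron-like nuclei 6 of its 7 genes were tested, 2 were higher, 2 lower and 2 not called, with a median log2 difference of 0.42 beside -0.06 for all 12383 genes tested. Lypd6b rose by 4.81 (edgeR adjusted p = 9.18e-14), with 92.3, 115.7 and 121.7 CPM in female 1 to 3 and 146.2, 127.9 and 60.0 CPM in male 1 to 3, against 3.76 ± 0.512 CPM in MSN-like nuclei. Lypd6 rose by 4.34 (edgeR adjusted p = 1.11e-08), and Lypd1 fell by 2.56 (edgeR adjusted p = 4.57e-08), to 11.6 ± 10.2 CPM against 63.6 ± 2.49 CPM in MSN-like nuclei. Ly6e was also lower, by -0.55 (edgeR adjusted p = 2.57e-02). Every Lypd6b value of the interneurons lay above every MSN value.

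Sst/Npy interneuron-like nuclei showed the same 3 genes called in the same directions. Lypd6 was higher by 4.90 (edgeR adjusted p = 1.34e-16) and Lypd6b by 4.44 (edgeR adjusted p = 1.16e-22), while Lypd1 was lower, with a log2 fold change of -1.53 (edgeR adjusted p = 2.26e-09). Ly6h was also higher, by 1.06 (edgeR adjusted p = 9.66e-13), so 3 lynx genes rose, 1 fell and 2 were not called. In cholinergic-like nuclei only Lypd6b of 5 tested was called, higher by 3.52 (edgeR adjusted p = 5.62e-08). Outside the named classes, cluster 6 had the highest Lypd6b of those given here, 174.5 ± 51.2 CPM.

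Of the chaperones that help subunits assemble, Tmem35a was higher in Pvalb/Pthlh interneuron-like nuclei by 0.61 (edgeR adjusted p = 4.35e-02) and in Sst/Npy interneuron-like nuclei by 0.97 (edgeR adjusted p = 1.22e-02), and the other listed chaperone was called in neither. Of the enzymes that break acetylcholine down, Ache was higher than in MSN-like nuclei in all 3 interneuron classes. Its log2 difference was 2.69 in cholinergic-like (edgeR adjusted p = 8.28e-11), 1.43 in Sst/Npy interneuron-like (adjusted p = 2.63e-06) and 0.59 in Pvalb/Pthlh interneuron-like nuclei (adjusted p = 4.05e-02). Cholinergic-like nuclei had 99.7 and 82.4 CPM of Ache in female 1 and female 3, and 102.0 and 58.8 CPM in male 1 and male 3, against 12.1 ± 1.88 CPM in MSN-like nuclei. Colq, the collagen tail that anchors the enzyme, was lower in Pvalb/Pthlh interneuron-like (-0.89, edgeR adjusted p = 1.12e-02) and Sst/Npy interneuron-like nuclei (-1.55, edgeR adjusted p = 8.51e-03). Chat and Slc5a7, which make acetylcholine and take up choline, were higher in cholinergic-like nuclei by 7.73 and 7.25, but both helped to name the class. Slc5a7 was also higher in Pvalb/Pthlh interneuron-like nuclei, by 2.42 (17.03 ± 3.78 CPM against 4.20 ± 2.21 CPM, edgeR adjusted p = 3.35e-06), and in Sst/Npy interneuron-like nuclei, by 2.26 (14.25 ± 8.001 CPM, edgeR adjusted p = 4.11e-06). Bche was higher in cholinergic-like nuclei by 0.58 (edgeR adjusted p = 3.94e-03).

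Between D1 and D2 MSN-like nuclei, Bche, which encodes butyrylcholinesterase, was higher by 1.13 (edgeR adjusted p = 2.36e-13), Lypd1 by 0.41 (adjusted p = 2.71e-07) and Ly6e by 0.33 (adjusted p = 1.56e-02), and the other 11 listed genes tested were not called. Bche in D1 MSN-like nuclei was at 184.0, 67.1 and 18.0 CPM in female 1 to 3 and 22.9, 239.7 and 145.9 CPM in male 1 to 3. D2 MSN-like nuclei had 60.3, 37.6 and 10.6 CPM in females and 15.2, 113.2 and 56.2 CPM in males. The D1 value was above the D2 value within each library, while set A lay below set B in both classes. Over all nuclei the listed genes with the highest means were Ly6h (165.9 ± 62.0 CPM), Bche (72.7 ± 52.4 CPM) and Lypd1 (54.4 ± 5.93 CPM, n = 6).

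The study's own contrast is sex, and no member was called between female and male pools in the main edgeR fits or with DESeq2. The fits held sex and label set, over all nuclei and in the 6 classes with at least 50 nuclei in every library. The members tested numbered 6 over all nuclei, 3 in D1 MSN-like, 3 in D2 MSN-like, 1 in Drd3 neuron-like and 1 in OPC-like nuclei, and 0 in astrocyte-like and oligodendrocyte-like nuclei, where none passed the count filter. Of all genes tested, 0.0433% were called over all nuclei, 0.0553% in D1 MSN-like, 0.0683% in D2 MSN-like, 0.0976% in Drd3 neuron-like, 0.101% in OPC-like, 0.0679% in astrocyte-like and 0.0774% in oligodendrocyte-like nuclei. These are 6 to 8 genes per fit with edgeR and 6 to 13 with DESeq2, and at an unadjusted p of 0.05 the fits held 272 to 1194 genes. No member was among those with an unadjusted p under 0.05 in edgeR, and the lowest were 0.114 for Chrna5 in D2 MSN-like nuclei and 0.127 for Chrna7 over all nuclei.

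Chrna7 over all nuclei was 53.3, 34.7 and 83.1 CPM in females and 62.4, 40.8 and 39.6 CPM in males, with a log2 fold change, female over male, of 0.29 (SE 0.173, edgeR adjusted p = 0.658). The ranges overlapped. In D1 MSN-like nuclei it was 0.09 (SE 0.223, edgeR adjusted p = 0.925), in D2 MSN-like nuclei 0.25 (SE 0.194, adjusted p = 0.796), in Drd3 neuron-like nuclei 0.28 (SE 0.206, adjusted p = 0.948) and in OPC-like nuclei -0.12 (SE 0.303, adjusted p = 0.992). Within set B alone, which leaves 2 pools per sex, Chrna7 differed by 0.20 over all nuclei (SE 0.225, edgeR adjusted p = 0.839), and by -0.041 in D1 MSN-like, 0.21 in D2 MSN-like, 0.58 in Drd3 neuron-like and -0.53 in OPC-like nuclei, with none called. Set A holds 1 pool per sex and gives no test. Chrna5 differed by -0.67 in D2 MSN-like nuclei (SE 0.389, edgeR adjusted p = 0.746) and by 0.10 over all nuclei (SE 0.261, adjusted p = 0.919). Over all nuclei the others differed by -0.12 (Chrna3), 0.11 (Chrna4), -0.06 (Chrnb2) and -0.47 (Chrnb3), with edgeR adjusted p of 0.684 to 0.949. For members below the count filter, 36 exact two-sided permutation tests were run, which with 3 against 3 pools cannot go below p = 0.1 and so could call nothing. Chrnb2 in Drd3 neuron-like nuclei reached that minimum, with 8.17, 8.20 and 5.75 CPM in female 1 to 3 and 4.42, 3.86 and 0 CPM in male 1 to 3, from 30 UMIs (exact permutation p = 0.1, 1.0 after Benjamini-Hochberg adjustment). The sexes did not overlap there. Chrna7 in oligodendrocyte-like nuclei averaged 15.67 ± 9.939 CPM in females and 3.131 ± 2.024 CPM in males, with overlapping ranges (exact permutation p = 0.2). It was called by edgeR when female 1 was left out. The standard errors leave room for differences of the size seen between classes, so equal levels are not shown.

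**Figure D5:**
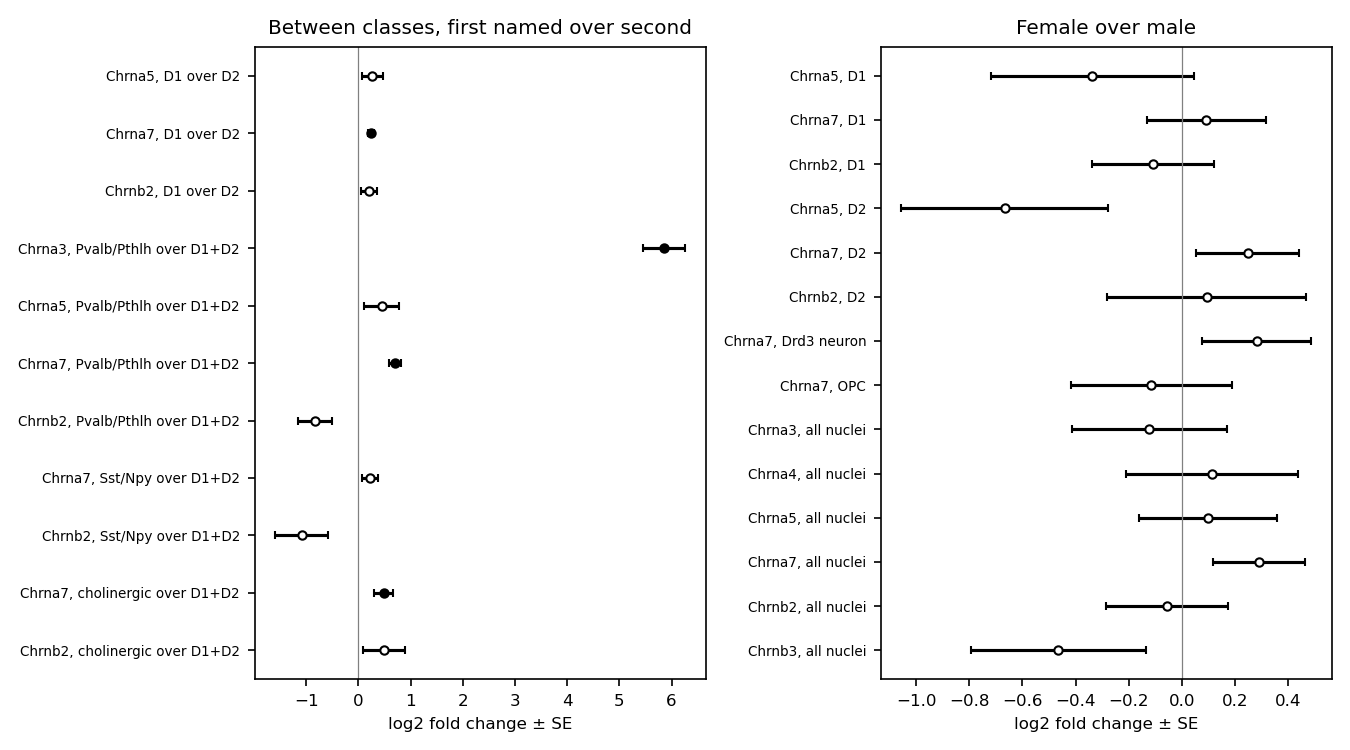
Log2 fold change with its standard error for every member tested, between classes (left, first-named class over second) and between sexes (right, female over male). Filled points passed an adjusted p of 0.05 in edgeR. The only points past 1 in size are Chrna3 in Pvalb/Pthlh interneuron-like and Chrnb2 in Sst/Npy interneuron-like nuclei, and the Chrnb2 point is open.

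As a description, the genes whose mean log2(CPM + 1) over 16 classes and clusters ran most like a member's were sought among 9912 genes. For Chrna7 they were Dcx (r = 0.968), Shank1 (r = 0.96) and Fgf12 (r = 0.957), and for Chrnb2 they were Herc1 (r = 0.924), Utp18 (r = 0.92) and Adh6 (r = 0.914). For Chrna5 they were Camk4 (r = 0.842), Fam98c (r = 0.829) and Ndrg4 (r = 0.789), and for Chrna4 they were Arhgap35 (r = 0.826), RGD1310429 (r = 0.826) and Dnah5 (r = 0.808). The points share their libraries, and the glutamatergic-like clusters were not among the 16.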

How the data were processed

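RNA of nuclei was measured with 10x 3' chemistry, in 6 libraries of 4 pooled animals each. The authors' deposited matrices hold raw UMI counts per gene and barcode, made with Cell Ranger 4.0.0 per the file headers, on build rn6 per the submitters' processing notes. No source used here names the annotation. Kept barcodes had at least 500 UMIs, 300 genes and at most 5% mitochondrial UMIs, and doublets were removed by Scrublet score at a rate scaled to the barcodes of each library (3238 in all), since Scrublet's own calls ran at 0% to 1.96% of a library. With scanpy 1.11.5, 3000 variable genes, 30 components, 20 neighbours and Leiden resolution 1, clusters were named from marker lists, and mixed ones set aside. The naming rule was revised with the clusters in view.

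CPM per class were computed in libraries with at least 20 nuclei of it, except in the finer split of the interneuron class, which uses all libraries. Class fits took libraries with at least 10 nuclei and sex fits classes with at least 50 in every library. Sums were tested with edgeR 4.0.16 (TMM, filterByExpr), and DESeq2 1.42.0 was an alternative. Tests on simulated data recovered 22% to 72% of 2-fold and 87% to 95% of 4-fold changes by sex, and 78% to 95% and 93% to 96% between classes. The changed genes were drawn at random from all genes past the count filter. These rates therefore do not give the recovery for the members, several of which had low counts. The members and lists were chosen with earlier results of these data known. Named were all 8 members, the listed companion genes that were called or among the 3 highest, and the 3 genes most alike. Same-numbered pools correlated at -0.771, 0.259 and -0.634 in their deviations and do not share animals by label. Whether pools are separate in more than animals is not stated, so p-values measure the spread between pools. Intervals and floors (3 counts) cover counting error only. None of the 6 pairs of libraries of the same sex agreed within sampling noise.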

Additional observations from a re-analysis of the deposited data

Results flagged for a closer look

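Chrnb2 in the Pvalb/Pthlh interneuron-like class stood apart in 1 library: male 3 had 16.35 CPM from 3 UMIs, and the others had 2.92 to 7.31 CPM. It was the only 1 of 43 levels tested in which the highest or lowest library lay far from the rest, and chance flags about 1 in 20.

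The clusters with markers of several lineages, which the classes above leave out, also carried members. Cluster 26, with glutamatergic and oligodendrocyte markers in 94 nuclei, had Chrna7 at 147.0 CPM, Chrna5 at 34.64 CPM and Chrna4 at 13.86 CPM, all libraries summed. Cluster 19, most of whose nuclei came from male 1, had Chrna4 at 15.16 CPM from 47 UMIs. In microglia-like nuclei Chrna4 was at 0 UMIs, which allows up to 4.61 CPM.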

How the results depend on the processing

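Depth limits Chrna3, Chrna6, Chrnb3 and Chrnb4 most, and the classes with few nuclei, and the glutamatergic-like clusters rest on 2 libraries. The fit on label set B alone, the sums without glutamatergic-like or mixed clusters and the split of the interneuron class were chosen after seeing the data. The cause of the changes below was not tested unless the setting itself names it.

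Of the class comparisons, D1 over D2 MSN-like called 1145 genes with DESeq2, against 1939 with edgeR, and 0 members with DESeq2 and with the finer clustering. The finer clustering also gives the MSN-like names to fewer nuclei. Cholinergic-like nuclei had 0 members called with DESeq2. Pvalb/Pthlh interneuron-like nuclei had 4 called with no count filter and 0 with the finer clustering, where Chrna3 was at 6.606 CPM, as in the Kit nuclei alone, against 67.83 CPM in the Tmem132c nuclei alone. Those are means over libraries, the second carried by female 1 with 182.9 CPM, and with libraries summed they were 7.87 and 20.1 CPM. Leaving out 1 library at a time gave 0 to 1 member for cholinergic-like and 2 to 3 for Pvalb/Pthlh interneuron-like nuclei, the one gained being Chrnb2 without male 3. With doublets kept, Chrna5 in glutamatergic-like cluster 25 was 383.0 CPM and Chrnb3 in cluster 27 was 30.34 CPM.

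By sex, genes called with no count filter numbered 14 over all nuclei, 22 in astrocyte-like, 94 in D1 MSN-like, 61 in D2 MSN-like, 13 in Drd3 neuron-like, 158 in oligodendrocyte-like and 11 in OPC-like nuclei. DESeq2 called 13 over all nuclei and 11 in D1 MSN-like nuclei. Nuclei under 2% mitochondrial UMIs gave 11 in astrocyte-like, 14 in Drd3 neuron-like and 12 in oligodendrocyte-like nuclei, and the fit with no label-set term gave 4 in oligodendrocyte-like nuclei. The replicate number as a block, in place of the label set, gave 3 over all nuclei and in D1, D2 and Drd3 classes, 4 in oligodendrocyte-like and 2 in OPC-like nuclei, though the numbers do not pair the pools. Leaving out 1 library gave 3 to 11 genes over all nuclei, 6 to 27 in astrocyte-like, 7 to 11 in Drd3 neuron-like and 2 to 219 in oligodendrocyte-like nuclei. The 219, without female 1, included Chrna7, so 0 to 1 member was called there.

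Small log2 fold changes by sex changed sign, and none of them was called. With label set B alone they were -0.041 for Chrna7 in D1 MSN-like, -0.20 for Chrnb2 in D2 MSN-like, -0.088 for Chrna4 and -0.083 for Chrna5 over all nuclei. Chrnb2 in D2 MSN-like nuclei was -0.067 with the replicate block and -0.061 under 2% mitochondrial UMIs. Without the glutamatergic-like clusters Chrna4 was -0.073 and Chrna5 -0.13. Leaving out 1 library gave -0.084 to 0.48 for Chrna4, -0.087 to 0.28 for Chrna5 and -0.16 to 0.087 for Chrnb2 over all nuclei, -0.55 to 0.024 for Chrna5 and -0.14 to 0.35 for Chrna7 in D1 MSN-like, -0.21 to 0.43 for Chrnb2 in D2 MSN-like and -0.53 to 0.06 for Chrna7 in OPC-like nuclei.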
